A study of Mus musculus with 4 samples.

Results

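The barcodes described here carried high levels of Prl2c2, a proliferin gene, in the library of kidney Gli1-positive cells that had been given TGF-β for 24 h. A barcode stands for the bead of 1 droplet, normally 1 cell. Barcodes of the 24 h library with 2000 or more counts were taken, and those with at least 10 Prl2c2 counts per 10000 counts, 142 of 822, are called Prl2c2-high; they were chosen by their measured Prl2c2 level. They were set against the 231 barcodes of the same library and the same minimum depth in which no Prl2c2 count was found. The remaining 449 barcodes lay between and served as part of a second comparison group, all 680 barcodes below the threshold. The series holds 3298 barcodes in all.

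The cells were a primary culture from the kidneys of male mice aged 12 weeks, labelled as Gli1-positive; Gli1 is a transcription factor of the hedgehog pathway that marks a population of perivascular mesenchymal cells. All cultures were kept without serum for 2 h. The 24 h, 12 h and 6 h cultures were then given 1 ng/ml TGF-β, and the control, called 0 h, was harvested without it. There was 1 library per time, so hours with TGF-β, hours without serum and the library itself cannot be told apart, and no test between times or between groups of barcodes was possible. Barcodes of 1 library are not replicates, and every interval given below is a 95% interval for counting error only.

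Proliferins are secreted glycoproteins of the prolactin family, encoded in the mouse by a cluster of near-identical Prl2c genes. They were found in growth-stimulated mouse fibroblast lines and are made in large amounts by trophoblast giant cells of the placenta, where they are known to bind the mannose 6-phosphate receptor and to act on blood vessel growth. TGF-β turns kidney mesenchymal cells towards myofibroblasts, cells that carry smooth muscle actin, encoded by Acta2, and lay down collagen.

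Prl2c2 was not found in the 0 h library, in which 0 of 106826 counts allows a level of up to 28.1 CPM (counts per 1e6 counts). That library held 192 barcodes with a median of 489.5 counts, and Scrublet marked 33 of them as doublets. Whether they were the same kind of cells as in the later libraries was not tested. The 0 can therefore not be read as the level of the cells described here before TGF-β. Prl2c2 stood at 3037 CPM (2916 to 3162) in the 6 h library and at 1435 CPM (1404 to 1466) in the 12 h library. In the 24 h library it was at 515 CPM (497 to 533). Only 50 barcodes of the 6 h library and none of the 0 h library reached 2000 counts, against 733 at 12 h and 822 at 24 h. Under the same threshold 84.0% of such barcodes were Prl2c2-high at 6 h, 58.7% (55.0 to 62.3%) at 12 h and 17.3% (14.8 to 20.04%) at 24 h. The median level over these barcodes was 33.7 Prl2c2 counts per 10000 at 6 h, 12.2 at 12 h and 3.08 at 24 h. The Prl2c2-high barcodes of the 24 h library were therefore the upper end of a distribution that lay lower than at 12 h, with no gap at the threshold.

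**Figure D1:**
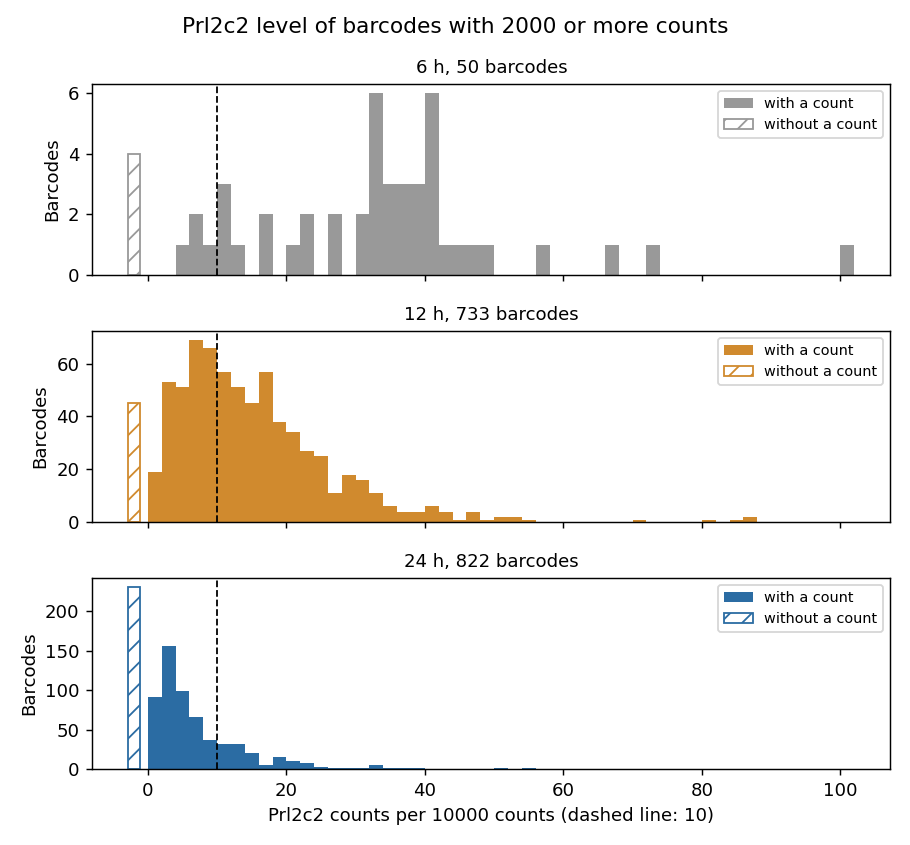
Prl2c2 counts per 10000 counts (x axis) in barcodes with 2000 or more counts of the 6, 12 and 24 h libraries, as numbers of barcodes per bin of 2 (y axis); the hatched bar at the left holds the barcodes without a count and the dashed line is the threshold of 10. The 24 h panel declines without a gap through the threshold, with 142 barcodes at or above it and 231 without a count.

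Among the 142 barcodes the Prl2c2 level ran between 10.1 and 55.9 per 10000, with a median of 14.5 and quartiles of 12.2 and 20.1. The number of Prl2c2 counts behind a level was small, between 3 and 66 per barcode with a median of 9. The barcode nearest the threshold on the inside had 3 Prl2c2 counts of 2978, or 10.1 per 10000, and the nearest on the outside had 7 of 7067, or 9.91 per 10000, so that 1 count can decide a barcode's side. These values follow from the rule and are given as a description.

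Depth moved with the groups. The Prl2c2-high barcodes had a median of 5664 counts, against 4653 in the barcodes without a Prl2c2 count, and the lack of a count was most frequent in shallow barcodes: 38.7% of barcodes with 2000 to under 4000 counts, 28.7% with 4000 to under 8000 and 18.3% with 8000 or more. The Prl2c2-high share varied less, at 47 of 235 barcodes, 16.6% and 15.8% in the same order. Each barcode was therefore thinned to 2000 counts for the main comparison. At that depth a median of 1221 genes was found per Prl2c2-high barcode and 1214 per barcode without a count. Mitochondrial counts made up a median of 1.78% in either group, and ribosomal protein genes made up 15.1% in Prl2c2-high barcodes and 15.7% in barcodes without a count. Scrublet marked 3 of the 142 Prl2c2-high barcodes and 2 of the 231 others as doublets. In the marker sums given below, over barcodes with 2000 or more counts, no cell type that should lack Prl2c2 was found. Shallower barcodes are not in these sums, and sums do not type single barcodes. No background share of barcodes with a count was therefore read. No barcode sequence was shared between libraries.

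Reads of the Prl2c genes cannot be fully separated. In the annotated transcripts of the mouse genome, 71.9% of the 51-base words in the last 600 bases of Prl2c2 also occur in Prl2c3, 12.0% in Prl2c5 and 9.20% in Prl2c1. The Prl2c2-high barcodes held 24 counts of Prl2c3, 10 of Prl2c5 and 1 of Prl2c1, and the barcodes without a Prl2c2 count held 4, 1 and 1 of these genes. The values of single Prl2c genes are thus uncertain. They were left out of every comparison below.

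The cell type markers found in Prl2c2-high barcodes were mainly those of mesenchymal cells. Of 11 mesenchymal markers 9 were in the table and Gli1 was not among them, so the label could not be read from that gene. The 9 markers summed to 4148 CPM (3915 to 4392) in Prl2c2-high barcodes and 4537 CPM (4345 to 4735) in barcodes without a count, both after thinning. Of the 9 markers, 6 reached a mean of 20 CPM over both groups, and 3 had 0 counts in the thinned Prl2c2-high barcodes. The sum thus rests on part of the markers. Markers of proximal tubule, of the loop, distal tubule and collecting duct, of endothelium and of macrophages were at 0 counts in the thinned Prl2c2-high barcodes, against 1, 0, 1 and 1 counts in the barcodes without a Prl2c2 count. Podocyte markers had 48 counts in Prl2c2-high barcodes and 105 in barcodes without a count. Of these, 46 and 104 came from Synpo, which encodes an actin-associated protein. Of 10 trophoblast and placental markers other than Prl2c genes, 3 could be read here, and they had 1 count in Prl2c2-high barcodes and 0 in barcodes without a count.

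Few genes stood apart from barcodes without a count. A gene was called apart when it reached 100 CPM in either group and differed by 1.5-fold or more on a log2(CPM + 10) scale, which understates the change of low genes. After thinning, 71 genes of 2103 were higher in Prl2c2-high barcodes (3.38%) and 43 lower (2.04%), 114 or 5.42% in all. With the same barcodes and all their counts, in place of thinned counts, 6 genes of 2022 were higher (0.297%) and 5 lower (0.247%). Against all 680 barcodes below the threshold, with all counts, 4 genes of 2006 were higher (0.199%) and 3 lower (0.15%), and after thinning 32 of 2070 were higher (1.55%) and 21 lower (1.01%). The thinned sums hold 283482 counts in Prl2c2-high barcodes and 461997 in barcodes without a count, so a gene at 100 CPM rests on few counts, and 10 of the 11 genes apart with all counts are described first. They were chosen after their values were seen. Since the Prl2c2-high barcodes were chosen within the same library, all of these values are a description. The higher genes were 62.3% of those apart after thinning. Under edgeR's TMM scaling they were 46.7% and under DESeq2 size factors 46.2%.

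Acta2 was the gene with the clearest difference. It encodes smooth muscle actin, the defining protein of the myofibroblast. After thinning it had 42 counts in Prl2c2-high barcodes and 217 in barcodes without a count, or 148 CPM (107 to 200) and 470 CPM (409 to 537), a ratio of 0.32 (0.22 to 0.44). With all counts it had 173 CPM (148 to 201) in Prl2c2-high barcodes and 494 CPM (456 to 533) in barcodes without a count, a ratio of 0.35 (0.29 to 0.42). An Acta2 count was found in 16.2% of thinned Prl2c2-high barcodes and 37.7% of thinned barcodes without a Prl2c2 count, and in 38.0% and 52.8% without thinning. Barcodes with 10 or more Acta2 counts per 10000 made up 5 of 142 Prl2c2-high barcodes, or 3.52% (1.15 to 8.03%), and 41 of 231 barcodes without a count, or 17.7% (13.05 to 23.3%). High levels of both genes in 1 barcode were thus found but infrequent. The difference kept its direction under 22 of 22 alternative settings, with log2 values between -2.87 and -0.73. These settings all draw on the same library, and several only rescale the same sums.

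The rest of the contractile list was lower by less. In this and the other lists a gene counted as measured at a mean of 20 CPM or more over both groups, and as past 1.5-fold without the 100 CPM minimum. By that count 7.83% of all 6236 genes were past 1.5-fold higher and 6.46% lower after thinning, and 1.36% of 6302 were higher and 0.968% lower with all counts. The list summed to 10840 CPM (10460 to 11230) in Prl2c2-high barcodes and 13392 CPM (13060 to 13730) in barcodes without a count, a ratio of 0.81 (0.77 to 0.85). Of its 15 measured genes, 1 was past 1.5-fold, Acta2 itself, and 2 of 15 had a log2 ratio above 0. The median was -0.32, beside 0.02 over all 6236 genes measured. Tpm4, a tropomyosin, stood at 409 CPM in Prl2c2-high barcodes and 613 CPM in barcodes without a count, Myl6, a myosin light chain, at 967 and 1331 CPM, and Cnn2, a calponin, at 617 and 833 CPM. Tagln, another smooth muscle gene, had 0 counts in thinned Prl2c2-high barcodes and 3 in barcodes without a count, too few to read.

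Sdpr, also named Cavin2, encodes a coat protein of caveolae. It stood at 522 CPM (441 to 613) in Prl2c2-high barcodes and 898 CPM (814 to 989) in barcodes without a count, a ratio of 0.58 (0.48 to 0.70), and at 519 and 885 CPM with all counts. The Sdpr and Acta2 intervals of the groups did not overlap, and the same held for other genes described below. Sdpr and Acta2 were picked by their difference in this same library, so the lack of overlap is in part fixed by the choice. The share of all genes without overlap is not given here. Adamts5, an aggrecan-cleaving protease, was lower with all counts, at 78.2 CPM (61.5 to 98.0) in Prl2c2-high barcodes and 129 CPM (110 to 150) in barcodes without a count. Thinned, it had 21 and 48 counts in these groups, and its ratio of 0.71 (0.41 to 1.21) spanned 1.

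Among genes for secreted and matrix proteins, Nid1 had the highest ratio with all counts. It encodes nidogen 1, which links laminin and collagen IV in basement membranes. With all counts it stood at 274 CPM (242 to 309) in Prl2c2-high barcodes and 134 CPM (114 to 155) in barcodes without a count, a ratio of 2.05 (1.69 to 2.499). After thinning the levels were 286 CPM (227 to 355) and 175 CPM (139 to 218), a ratio of 1.63 (1.18 to 2.25). A Nid1 count was found in 75.4% of Prl2c2-high barcodes and 48.9% of barcodes without a Prl2c2 count, and in 38.0% and 28.1% after thinning. Nid1 was the 1 gene of the 17 measured matrix glycoproteins and proteoglycans past 1.5-fold after thinning. This count is near the share over all measured genes, of which 7.83% were past 1.5-fold higher. The matrix list summed to 12100 CPM (11698 to 12511) in Prl2c2-high barcodes and 11792 CPM (11481 to 12110) in barcodes without a count.

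Igfbp3, which binds insulin-like growth factors outside the cell, stood at 446 CPM (405 to 490) in Prl2c2-high barcodes and 241 CPM (215 to 269) in barcodes without a count, with all counts, a ratio of 1.85 (1.595 to 2.15). Thinned, its ratio was 1.42 (1.10 to 1.84).

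TGF-β targets lay near 1 as a sum. Of 13 measured TGF-β target genes 0 were past 1.5-fold higher and 1 was lower, Smad7, an inhibitor of TGF-β signalling, with 8 counts in Prl2c2-high barcodes and 32 in barcodes without a count. With all counts Smad7 had a log2 ratio of -0.25, and 1 of 14 measured targets was past 1.5-fold higher and 0 lower. Over all measured genes 6.46% were past 1.5-fold lower after thinning, and 1.36% were higher with all counts. The list summed to 2296 CPM in Prl2c2-high barcodes and 2385 CPM in barcodes without a count, a ratio of 0.96 (0.87 to 1.06). Ctgf, a secreted TGF-β and YAP target, was at 480 CPM (403 to 567) in Prl2c2-high barcodes and 630 CPM (560 to 707) in barcodes without a count.

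Collagens differed little. The list summed to 5443 CPM (5175 to 5722) in Prl2c2-high barcodes and 5933 CPM (5713 to 6159) in barcodes without a count, and 0 of its 12 measured genes were past 1.5-fold in either direction. Col1a1 stood at 388 CPM (319 to 468) in Prl2c2-high barcodes and 431 CPM (373 to 495) in barcodes without a count, Col3a1 at 399 and 418 CPM. Fn1, which encodes fibronectin, was at 3884 CPM (3658 to 4120) in Prl2c2-high barcodes and 3336 CPM (3171 to 3506) in barcodes without a count, a ratio of 1.16 (1.08 to 1.26). With all counts that ratio was 1.06 (1.01 to 1.11). The receptor genes Pdgfra and Pdgfrb had 9 and 14 counts in thinned Prl2c2-high barcodes and 14 and 25 in barcodes without a count, and both intervals of their ratios spanned 1.

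**Figure D2:**
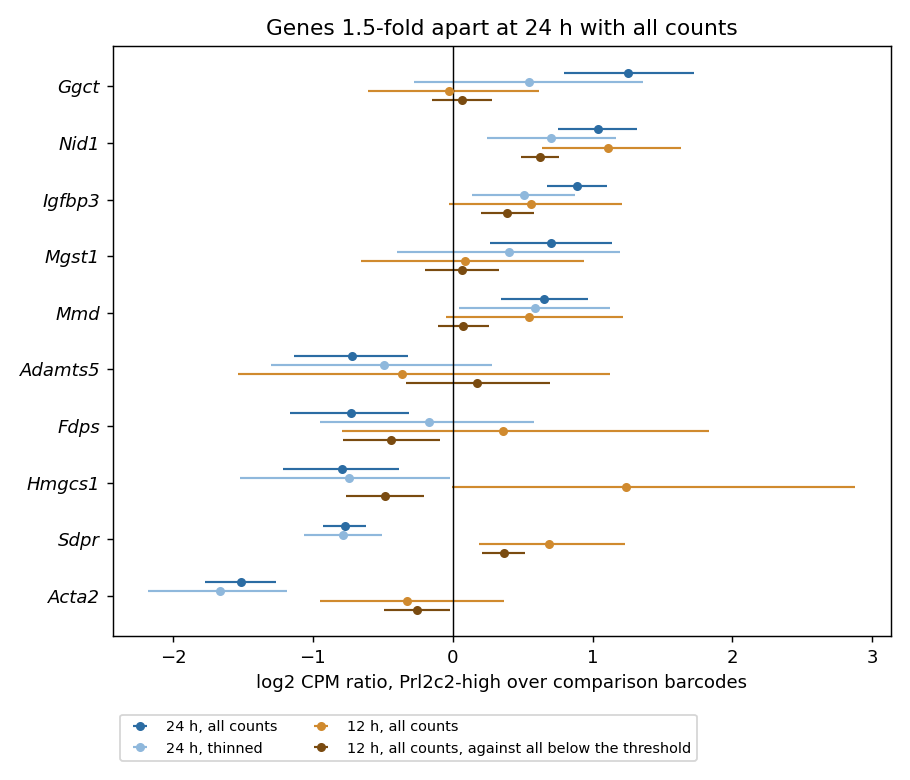
Log2 ratio of CPM (x axis) for 10 of the 11 genes that were 1.5-fold apart at 24 h with all counts, with 95% counting intervals; blue, 24 h against barcodes without a count (dark with all counts, light thinned); orange, 12 h against barcodes without a count; brown, 12 h against all barcodes below the threshold. Acta2 and Sdpr lay below 0 at 24 h, and of these 2 genes Sdpr lay above 0 at 12 h, whereas the points of Nid1 and Igfbp3 lay above 0 in every comparison drawn.

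Genes of G2 and M phase, which are made by dividing cells, were higher in Prl2c2-high barcodes. The list of 30 genes summed to 674 CPM (582 to 776) in Prl2c2-high barcodes and 379 CPM (325 to 439) in barcodes without a count after thinning, a ratio of 1.78 (1.44 to 2.20), and to a ratio of 1.51 (1.34 to 1.70) with all counts. At least 1 such count was found in 57.0% of thinned Prl2c2-high barcodes and 51.1% of thinned barcodes without a Prl2c2 count. Of 191 thinned counts in Prl2c2-high barcodes, 21 lay in 1 barcode, and 15 of 142 barcodes, or 10.6% (6.03 to 16.8%), held 3 or more, against 10 of 231, or 4.33% (2.10 to 7.82%). Of the 30 genes 6 were measured after thinning, with 2 past 1.5-fold higher and 0 lower. With all counts 4 were measured, with 1 higher and 0 lower. Over all measured genes 7.83% were higher after thinning and 1.36% with all counts. The list's log2 ratio was 0.83, or 0.67 without the barcode with most counts. It was 0.23, no longer past 1.5-fold, with barcodes of 1000 or more counts thinned to 1000. Mki67, a marker of cycling cells, had 9 counts in thinned Prl2c2-high barcodes and 0 in barcodes without a count. With 3 counts put in place of the 0 the ratio was 4.89. This value leaves out the counting error of the 9 counts and is not a lower limit. The mean of Mki67 lay below that of a measured gene. Top2a, a topoisomerase, had 16 and 4 counts, and Cdk1, the mitotic kinase, had 13 and 4 counts in the same groups. Barcodes with 3 or more counts of the list were also left out, a filter on the list's own genes. The log2 ratios were then 0 for Mki67, 0.44 for Top2a and -0.09 for Cdk1. The S phase list was level, at 409 CPM in either group, a ratio of 1.00 (0.79 to 1.27).

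Cholesterol synthesis genes were lower in Prl2c2-high barcodes. The list summed to 762 CPM (664 to 871) in Prl2c2-high barcodes and 996 CPM (907 to 1091) in barcodes without a count after thinning, a ratio of 0.77 (0.65 to 0.90), and the ratio was 0.69 (0.63 to 0.75) with all counts. Of 14 measured genes 3 were past 1.5-fold lower and 0 higher, with a median log2 of -0.16, and with all counts 4 of 15 were lower and 0 higher. Over all measured genes 6.46% were past 1.5-fold lower after thinning and 0.968% with all counts. Lss, which encodes lanosterol synthase, had 7 counts in Prl2c2-high barcodes and 37 in barcodes without a count, a ratio of 0.31 (0.12 to 0.70). Hmgcs1, which makes HMG-CoA, stood at 74.0 CPM (57.8 to 93.3) in Prl2c2-high barcodes and 128 CPM (110 to 149) in barcodes without a count with all counts. Fdps, farnesyl diphosphate synthase, stood at 70.9 CPM (55.0 to 89.8) in Prl2c2-high barcodes and 118 CPM (99.7 to 138) in barcodes without a count with all counts, whereas its thinned ratio of 0.89 (0.52 to 1.49) spanned 1.

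Antioxidant genes of the NRF2 list were slightly higher. They summed to 6551 CPM (6256 to 6856) in Prl2c2-high barcodes and 5548 CPM (5335 to 5767) in barcodes without a count, a ratio of 1.18 (1.11 to 1.254). Of 14 measured genes 1 was past 1.5-fold higher, which is near the share over all genes, namely Gsta4, a glutathione transferase with 16 counts in Prl2c2-high barcodes and 14 in barcodes without a count, and 10 of 14 had a log2 ratio above 0. Ftl1, the ferritin light chain, was at 1266 CPM in Prl2c2-high barcodes and 983 CPM in barcodes without a count. A pair of further glutathione enzymes was higher with all counts. Ggct, gamma-glutamylcyclotransferase, had 115 CPM (94.2 to 138) in Prl2c2-high barcodes and 48.1 CPM (36.9 to 61.5) in barcodes without a count, a ratio of 2.38 (1.73 to 3.30). Its thinned ratio of 1.46 (0.83 to 2.57) spanned 1. Mgst1, microsomal glutathione transferase 1, had 103 CPM (83.8 to 126) and 63.3 CPM (50.5 to 78.5) in the same groups. After thinning, the Mgst1 log2 ratio was -0.57 in barcodes with 2000 to under 4000 counts and 1.16 in those with 4000 or more. Mmd, a membrane protein first described in maturing macrophages, had 197 CPM (170 to 227) in Prl2c2-high barcodes and 125 CPM (107 to 146) in barcodes without a count.

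**Figure D3:**
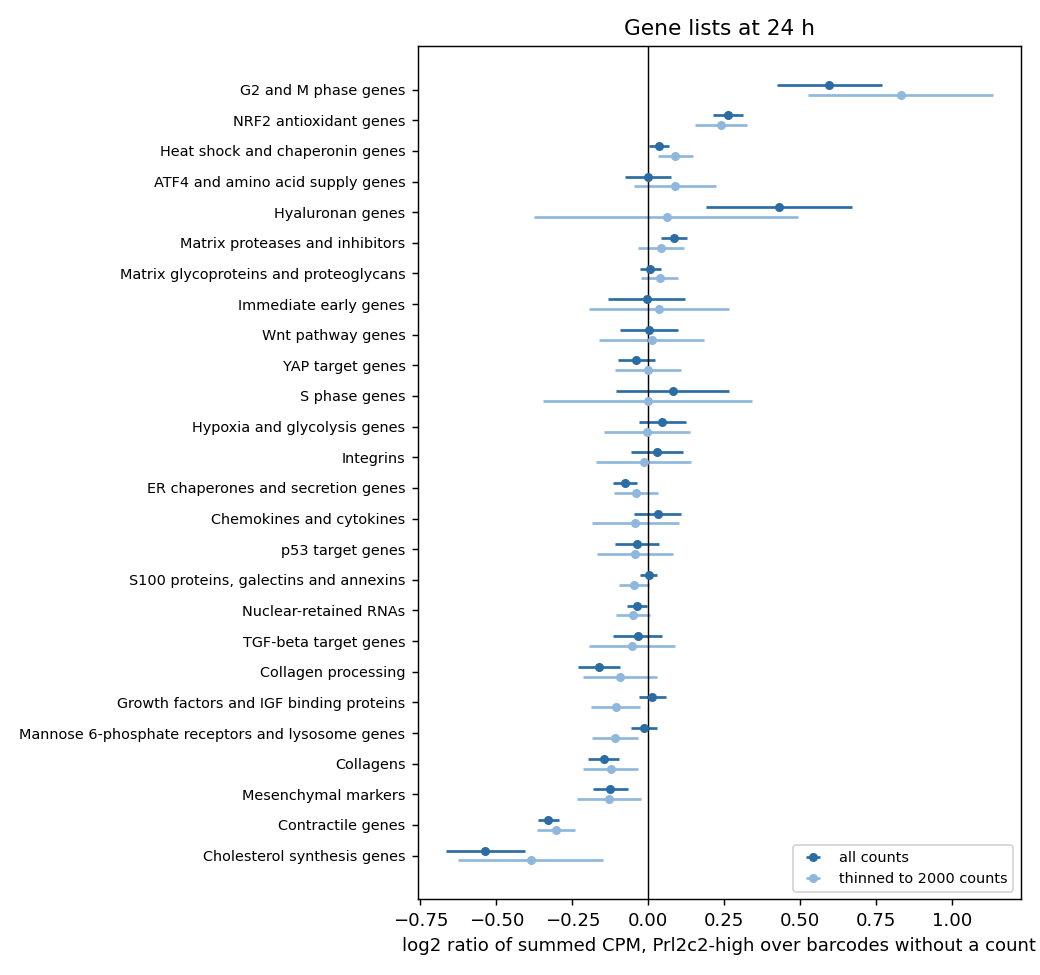
Log2 ratio of the summed CPM of each gene list with 3 or more measured genes (x axis), Prl2c2-high barcodes over barcodes without a count at 24 h, with 95% counting intervals; dark points use all counts and light points thinned counts. The G2 and M phase list lay highest, at 0.83 thinned, and the contractile and cholesterol synthesis lists lowest, at -0.30 and -0.39 thinned.

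The other lists lay near 1 after thinning. Mannose 6-phosphate receptors and lysosome genes, the list that includes the receptors bound by proliferin, summed to a ratio of 0.93 (0.88 to 0.98), with 0 of 16 measured genes past 1.5-fold. M6pr had 22 counts in Prl2c2-high barcodes and 30 in barcodes without a count, and Igf2r, the larger receptor, had 4 and 8. Chemokines and cytokines summed to a ratio of 0.97 (0.88 to 1.07). Within them Ccl2 was at 229 CPM in Prl2c2-high barcodes and 175 CPM in barcodes without a count, Ccl7 at 215 and 180 CPM, and barcodes with 10 or more counts of the 2 chemokines per 10000 were 15.5% (9.97 to 22.5%) and 9.96% (6.42 to 14.6%) of the groups. YAP targets had a ratio of 1.00 (0.93 to 1.08), matrix proteases and inhibitors 1.03 (0.98 to 1.08), collagen processing genes 0.94 (0.86 to 1.02), integrins 0.99 (0.89 to 1.10) and growth factors with IGF binding proteins 0.93 (0.88 to 0.98). Hyaluronan genes had 1.04 (0.77 to 1.41), but 1.35 (1.14 to 1.59) with all counts. There 1 of 3 measured genes was past 1.5-fold higher, beside 1.36% of all measured genes. It was the hyaluronan synthase gene Has2. Its log2 ratio was 0.60 from 55 counts in Prl2c2-high barcodes and 45 in barcodes without a count. The list's log2 ratio ran between -0.35 and 0.72 over the alternative settings. Immediate early genes had 1.03 (0.87 to 1.201), ATF4 and amino acid supply genes 1.06 (0.97 to 1.17), p53 targets 0.97 (0.89 to 1.06), hypoxia and glycolysis genes 1.00 (0.90 to 1.10) and Wnt pathway genes 1.01 (0.89 to 1.13). Heat shock and chaperonin genes had 1.06 (1.02 to 1.11), chaperones of the endoplasmic reticulum 0.97 (0.92 to 1.02), S100 proteins with galectins and annexins 0.97 (0.94 to 1.00) and nuclear-retained RNAs 0.97 (0.93 to 1.00).

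The 14 genes with the highest thinned ratio were mostly low genes whose ratio lay nearer to 1 with all counts. Man1a, a Golgi mannosidase that trims N-linked sugars, had 29 counts in Prl2c2-high barcodes and 11 in barcodes without a count, a log2 ratio of 1.73 that was 0.76 with all counts. Ccng2, which encodes cyclin G2, had 32 and 18 counts in these groups, a log2 ratio of 1.33 thinned and 0.16 with all counts. Others among the 14 were Sap30bp, Phlda1, the RNA helicase gene Dhx9, Ifrd1, the actin regulator gene Wasl, Cyth2, Snhg12, Marcksl1, the sphingosine phosphate lyase gene Sgpl1 and the thymidylate kinase gene Dtymk, with thinned log2 ratios between 1.11 and 0.80. With another draw of the thinning, 7 of the 28 genes named at both ends were still past 1.5-fold, and with all counts 5 were.

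At the other end stood Ifi27, an interferon-induced gene, with 7 counts in Prl2c2-high barcodes and 50 in barcodes without a count, a log2 ratio of -1.77 that was -0.67 with all counts. Acta2 came next, and the further genes were D15Ertd621e, the vesicle scaffold gene Erc1, Smim15, the mitochondrial ribosome genes Ict1 and Mrps34, Yipf4, the histone deubiquitinase gene Usp16, the TRAIL receptor gene Tnfrsf10b, the RNA-binding protein gene Hnrnpd, Anxa8, Sdpr and the elastic fibre gene Efemp2. Apart from Acta2 and Sdpr, these 12 genes had between 7 and 33 thinned counts in Prl2c2-high barcodes.

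Within the 24 h library the levels were also read across tiers of Prl2c2. Acta2 stood at 470 CPM in barcodes without a count, 467 CPM in barcodes with under 10 Prl2c2 counts per 10000, 180 CPM with 10 to under 20 and 59.0 CPM with 20 to under 40, the last from 4 counts in 34 barcodes. The first 2 of these values were close, and the other two were lower. The tiers take their edges from the rule, so where between them the level changes cannot be read. Sdpr was at 898, 867, 505 and 560 CPM in the same tiers. Nid1 was at 175, 186, 283 and 310 CPM in the same tiers, and Igfbp3 at 292, 281, 444 and 339 CPM. Only 2 barcodes reached 40 per 10000.

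**Figure D4:**
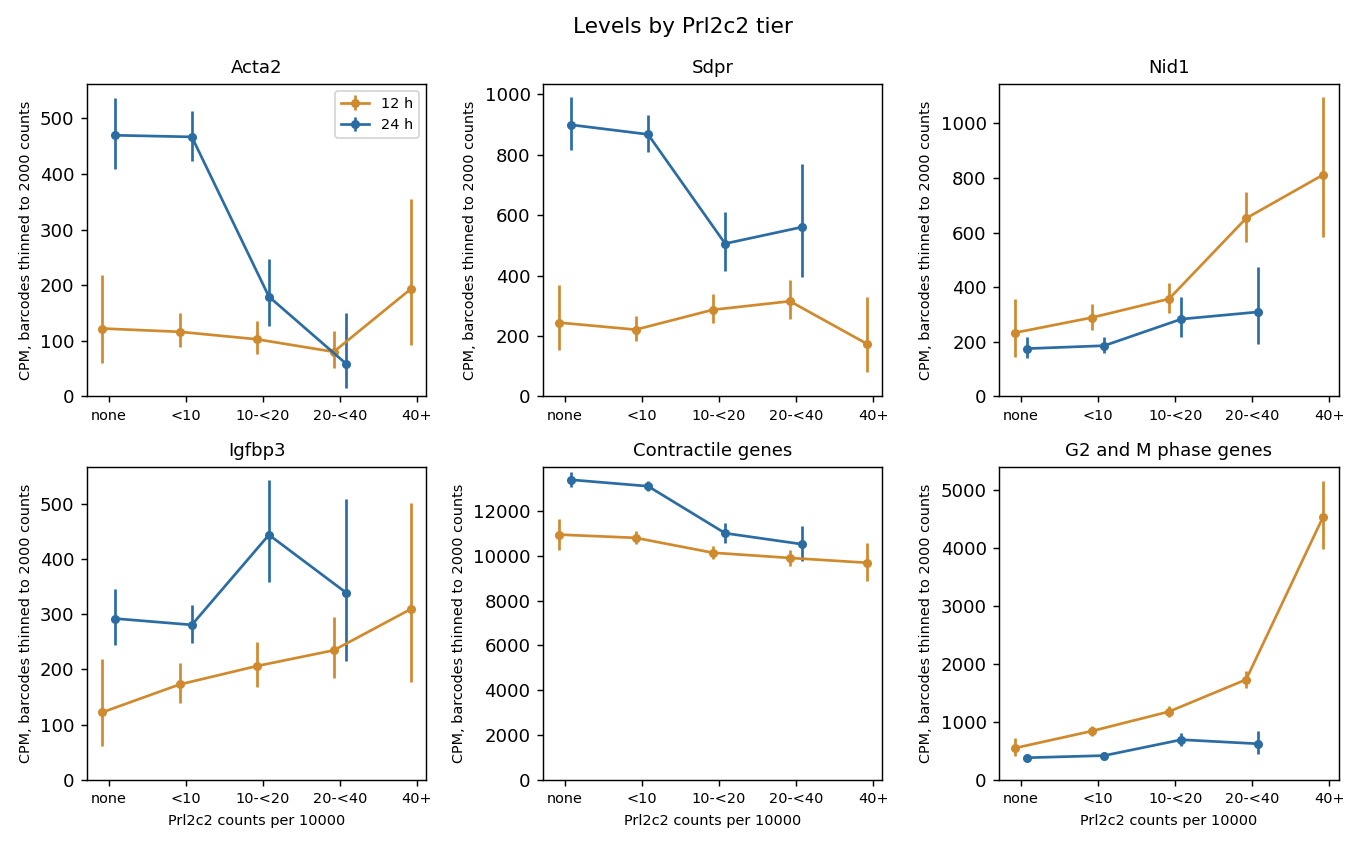
Level after thinning (y axis, CPM, with 95% counting intervals) in tiers of Prl2c2 level (x axis, counts per 10000) at 12 h (orange) and 24 h (blue); the top 24 h tier, with 2 barcodes, is not drawn. At 24 h Acta2 was at 59.0 CPM in the 20 to under 40 tier, against 470 CPM without a count; at 12 h Nid1 and the G2 and M phase genes were higher in each higher tier.

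The 12 h library was not used to choose the 24 h barcodes. Under the same rule it held 430 Prl2c2-high barcodes and 45 without a count, and a median of 6522 counts stood against 3430 counts in these groups. After thinning, 200 of 2431 genes were higher in the 12 h Prl2c2-high barcodes (8.23%) and 253 lower (10.4%), 453 or 18.6% in all, and with all counts 74 of 2285 were higher (3.24%) and 97 lower (4.25%). Under TMM scaling the higher genes were 65.9% of those apart at 12 h, against 44.2% without it. TMM moved every 12 h log2 ratio up by 0.10. The 45 barcodes without a count held only 89999 thinned counts, so the 303 barcodes below the threshold were used as well. Against these, 9 of 2184 genes were higher (0.412%) and 11 lower (0.504%) after thinning, and with all counts 1 of 2136 was higher (0.0468%), Nid1, and 1 lower (0.0468%), Cyp51, a cholesterol synthesis gene.

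Nid1 was thus higher in the Prl2c2-high barcodes of both libraries. At 12 h it stood at 465 CPM (442 to 490) in Prl2c2-high barcodes and 303 CPM (280 to 327) in barcodes below the threshold, with all counts, a ratio of 1.54 (1.40 to 1.69), and at 215 CPM (151 to 298) in the barcodes without a count, a ratio of 2.16 (1.56 to 3.10). Across the 12 h tiers it stood at 233, 289, 357, 652 and 812 CPM, higher in each higher tier. Igfbp3 was at 211 CPM (196 to 228) and 161 CPM (144 to 179) in 12 h Prl2c2-high barcodes and barcodes below the threshold.

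The Acta2 difference was smaller at 12 h in the sums with all counts and varied with the setting there. It was at 105 CPM (93.9 to 116) in 12 h Prl2c2-high barcodes and 125 CPM (110 to 141) in barcodes below the threshold, a ratio of 0.84 (0.71 to 0.99), while at 24 h the ratio against barcodes below the threshold was 0.38 (0.32 to 0.44). Against the 45 barcodes without a count the 12 h log2 ratio was -0.26 after thinning, -1.62 with barcodes paired on total count, 0.60 thinned to 5000 and 1.05 thinned to 1000, from few Acta2 counts. Whether the ratios of the 2 libraries differ was not tested, with 1 library each. Sdpr had the opposite sign at 12 h, at 318 CPM (299 to 338) in Prl2c2-high barcodes and 247 CPM (226 to 269) in barcodes below the threshold. Ggct, Mgst1 and Mmd had 12 h ratios of 1.05 (0.90 to 1.22), 1.05 (0.87 to 1.26) and 1.05 (0.93 to 1.197) against barcodes below the threshold.

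The lists followed the 24 h direction at 12 h in some cases. G2 and M phase genes summed to 1579 CPM in 12 h Prl2c2-high barcodes and 796 CPM in barcodes below the threshold, a ratio of 1.98 (1.79 to 2.21), and 16 of 22 measured genes were past 1.5-fold higher, with a median log2 of 0.93. Over all 6548 genes measured in that comparison 2.9% were past 1.5-fold higher and 2.4% lower. With barcodes of 1000 or more counts thinned to 1000, the list's 12 h log2 ratio against barcodes without a count was 0.69, against 1.54 at 2000. Barcodes with 3 or more such counts were 19.5% (15.9 to 23.6%) of the 12 h Prl2c2-high barcodes and 11.9% (8.46 to 16.1%) of those below the threshold. NRF2 genes had a ratio of 1.11 (1.07 to 1.16), contractile genes 0.93 (0.90 to 0.96) and collagens 0.89 (0.85 to 0.94) in that comparison. Cholesterol synthesis genes had a ratio of 0.78 (0.68 to 0.88) against barcodes below the threshold, but 1.34 (0.97 to 1.88) against the 45 barcodes without a count, whose sum rests on 41 counts.

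The genes named at the 2 ends of the thinned 24 h comparison were read at 12 h as well. Against 12 h barcodes without a count, 6 of the 14 highest were higher and 6 of the 14 lowest were lower. Over all 2103 genes the shares in those directions were 52.7% and 47.3%. Against 12 h barcodes below the threshold, 3 of the 14 highest were higher and 10 of the 14 lowest were lower, beside 49.98% and 50.02% of all genes. Past 1.5-fold in the same direction were 0 of either set of 14 in both comparisons. Over all genes 9.18% were past 1.5-fold higher and 3.95% lower against barcodes without a count, and 0.333% in each direction against barcodes below the threshold.

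Correlation across single barcodes was weak in the thinned counts. Over the 822 barcodes of the 24 h library, thinned to 2000 counts, the 5 genes of 1888 whose level went most with that of Prl2c2 were Fn1, Ctsl, Dhx9, Cyba and Mmd, with Spearman values between 0.12 and 0.11, and the lowest was Cnn2 at -0.14. The barcodes share 1 library, and these values are a description. A thinned barcode holds few or no counts of most of the 1888 genes, which limits how large such values can be. Within the 142 Prl2c2-high barcodes the Prl2c2 level had a Spearman correlation of -0.27 with the total count. The rule cuts this level from below, and the total count is its divisor, so the value depends on the rule and is a description.

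Nid1 lies near Prl2c2, which was looked up after its value was seen. In the GENCODE M21 annotation of GRCm38 (mm10), Prl2c2 is at chr13:12996125-13005383 on the minus strand, and Nid1 is at chr13:13437551-13512269 on the plus strand, 432 kb away. Of the 14 genes of the table within 1 Mb, Prl2c genes aside, 6 had 20 or more counts at 24 h. Gpr137b, a lysosomal membrane protein gene at 352 kb, had 36 counts in Prl2c2-high barcodes and 20 in barcodes without a count, a ratio of 2.46 (1.39 to 4.48) with all counts. Heatr1 had a ratio of 1.82 (0.89 to 3.82), Lgals8 1.28 (0.84 to 1.95), Tbce 1.07 (0.67 to 1.69) and B3galnt2 0.78 (0.47 to 1.27), and these 4 intervals spanned 1. At 12 h against barcodes below the threshold, Gpr137b had a ratio of 1.10 (0.78 to 1.57), so of these 6 genes Nid1 alone had an interval above 1 in both libraries. Nid1 had been picked by its values. It also had the most counts of the 6 at 24 h, 263 in Prl2c2-high barcodes and 175 in barcodes without a count. That it stood alone is thus a description.

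**Figure D5:**
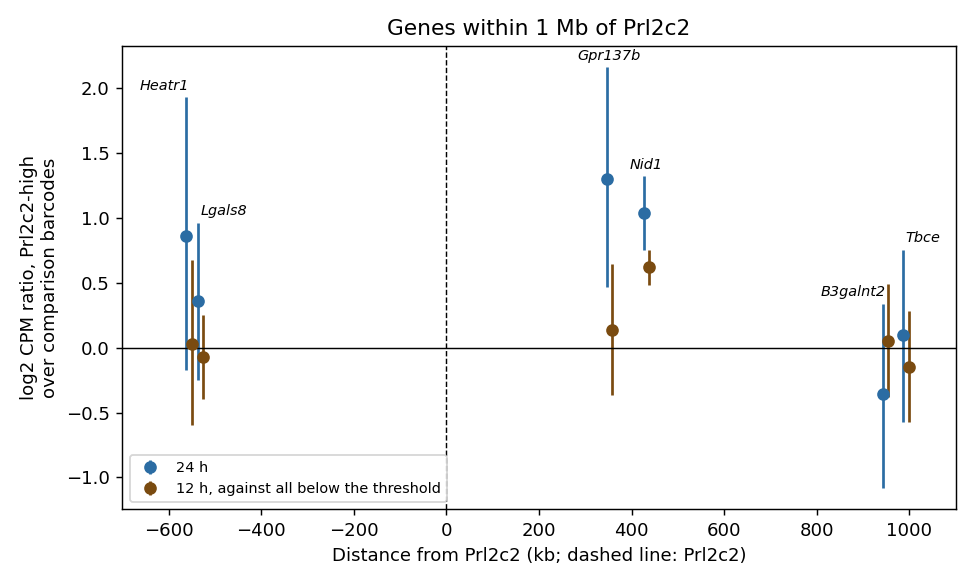
Log2 ratio of CPM with all counts (y axis, 95% counting intervals) of the 6 genes within 1 Mb of Prl2c2 with 20 or more counts, by distance from Prl2c2 (x axis, kb); blue, 24 h Prl2c2-high barcodes over barcodes without a count; brown, the same rule at 12 h over all barcodes below the threshold. Nid1, at 432 kb, and Gpr137b, at 352 kb, lay above 0 at 24 h, and Nid1 also at 12 h.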

How the data were processed

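Drop-seq counts of 4 libraries of primary mouse kidney cells, 1 per time, were used. The deposited values are unnormalized counts, whole numbers for 17391 genes in 3298 barcodes; the authors aligned with STAR 2.5.3a to mm10, per the submitters' processing notes. Gene counting, filters and whether molecular identifiers were collapsed were not stated in the labels or headers. Libraries held between 106826 and 6166324 counts.

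Barcodes with 2000 or more counts were thinned to 2000 (seed 1), Prl2c genes were left out, and counts were summed per group as CPM (counts per 1e6 counts outside Prl2c genes). Intervals are exact Poisson, exact conditional binomial for ratios and exact binomial (Clopper-Pearson) for shares, at 95%. Limits of a count of 0 use 3 counts. With 1 library per time no test was made. Named genes are the 14 highest and 14 lowest at 100 CPM or more, without mitochondrial, ribosomal protein and unnamed genes and those with over 25% of counts in 1 barcode, a fixed set of study genes, and up to 4 genes of each list. List genes were measured at a mean of 20 CPM. Doublets were called with Scrublet in scanpy 1.11.5 and kept. Python 3.11.15, numpy 2.4.6, scipy 1.17.1, edgeR 4.0.16 (TMM) and DESeq2 1.42.0 (size factors) were used, the last 2 for scaling only. The calculation was run on simulated counts to check that planted changes were found. Those counts held no differences between the cells of a group, so they give no share of false calls for these data. The barcodes and lists were chosen with earlier results of these data known. Values at 6 h were not compared, since 4 barcodes lacked a count, under a minimum of 20. Results for 3 genes are not reported here.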

Additional observations from a re-analysis of the deposited data

How the results depend on the processing

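No paired analysis was possible because each time has 1 library and the comparison lies within it. The 24 h count of genes apart, 114, was 11 with counts summed without thinning, 23 with equal weight per barcode, 17 with barcodes paired on total count, 509 with 2000 to under 4000 counts only, 252 with 4000 or more only, 283 thinned to 1000 and 67 thinned to 5000. It was 41 with a threshold of 5 per 10000, 527 with 20, 53 against all below the threshold, 26 with a pseudocount of 50 CPM, 421 with a floor of 50 CPM, 13 with 200, 2068 with none, 528 at the lower fold tried, 9 at 2-fold and 175 with totals without mitochondrial and ribosomal protein genes. The 12 h count, 453, was in the same order 171 without thinning, 190 with equal weight, 750 and 998 in the depth ranges, 1242 thinned to 5000, 20 against all below the threshold, 207 with a pseudocount of 50 CPM, 1167, 110 and 4185 with the floors, 1045 at the lower fold and 84 at 2-fold. Of the 28 genes named at the ends, 5 were past 1.5-fold without thinning, 8 with equal weight, 6 paired, 7 with another seed, 12 thinned to 1000, 4 thinned to 5000, 18 with a threshold of 5 and 9 at 2-fold. Of the lists, 1 had a summed ratio past 1.5-fold; this was 2 with 2000 to under 4000 counts only and at the lower fold, and 0 thinned to 1000, at 2-fold and without barcodes with 3 or more G2 and M phase counts, an alternative added after seeing the data that filters on the list's own genes. Signs reversed with another seed for Cyth2 (-0.029), Marcksl1 (-0.19), Dtymk (-0.018), Hnrnpd (0.024) and Efemp2 (0.14); for Mrps34 when paired (0.076), thinned to 1000 (0.44) and to 5000 (0.16); thinned to 1000 for Ifrd1 (-0.0063) and Tnfrsf10b (0.20); thinned to 5000 for P4ha1 (-0.037) and Klf4 (0.18); and for Dtymk at 12 h with 4000 or more counts (0.28), thinned to 1000 (0.23) and against all below the threshold (0.062). The causes were not tested, apart from the fewer counts that thinning and depth ranges leave by construction. Of the 11 genes apart with all counts, 9 kept their sign under 22 of 22 alternatives at 24 h, and Fdps and Mgst1 under 20. All counts, the setting by which these genes were chosen, is 1 of the 22, and several others only rescale the same sums. The tally is thus fixed in part by the choice and is a description. The thinned Prl2c2-high barcodes hold 283482 counts in all, and the intervals show what that number of counts can tell apart.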
